A study of Saccharomyces cerevisiae with 10 samples.

Results

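The hexose transporter and glucose sensing genes of *Saccharomyces cerevisiae* were followed here in RNA from the BY laboratory strain and from BY *UBR1* -469A>T. The 10 genes were taken by identifier from the 6612 transcripts in the files. They are the transporters *HXT1* (YHR094C), *HXT2* (YMR011W), *HXT3* (YDR345C), *HXT4* (YHR092C), *HXT5* (YHR096C), *HXT6* (YDR343C) and *HXT7* (YDR342C), the sensors *SNF3* (YDL194W) and *RGT2* (YDL138W), and the regulator *MTH1* (YDR277C). All 10 passed the filter of at least 10 estimated counts in every library. BY *UBR1* -469A>T is BY with the RM vineyard strain's base in the promoter of *UBR1*, whose product is the ubiquitin ligase of the Arg/N-end pathway of protein degradation. Each strain has 5 biological replicates, haploid cultures of the background that the labels name BY4741. Permutation p-values comparing the strains measure the spread between cultures. Those of the main test measure the spread left after 2 covariates estimated from the same counts. For *HXT7* these covariates took the SE from 0.268 to 0.050. The paper's methods give 100 mL cultures in synthetic complete medium, whose sugar is dextrose (glucose). They started at an optical density of 0.05 and were harvested together after about 7 hours at about 0.40. The glucose left at harvest is not given. RNA was extracted in batches balanced for strain, and libraries were prepared in a single batch. Both strains thus share background, medium and harvest, and the engineered base is the stated difference. The edited strain also went through the paper's Cas9 allele swap, which is not described for wild-type BY. Effects of those steps and of the base cannot be told apart.

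Yeast takes up hexoses by facilitated diffusion through the Hxt carriers of the plasma membrane, which differ in their affinity for glucose. Snf3 and Rgt2 resemble these carriers but act as receptors: when glucose binds them, casein kinases and the ubiquitin ligase SCF-Grr1 remove Mth1 and Std1, the partners that Rgt1 needs to repress the *HXT* genes together with Cyc8 and Tup1. In a separate branch, the Mig1 repressor shuts off transporters of higher affinity and genes for other carbon sources when glucose is plentiful. The Snf1 kinase counteracts Mig1 when glucose is scarce.

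Transcripts of 7 of the 10 genes were higher in BY than in BY *UBR1* -469A>T, and none was lower, at an adjusted p under 0.1 in edgeR's quasi-likelihood test, which held 2 surrogate variables. The median log2 fold change of BY over BY *UBR1* -469A>T was 0.16 over the 10 genes and -0.0012 over the 5987 transcripts tested. Of all transcripts tested, 21.2% were called in either direction, 9.32% higher in BY and 11.9% lower in BY. The 10 genes were chosen with earlier results of these data known, so their share is not that of a set picked blind. The paper, whose model also held extraction batch and optical density, called a far smaller share of its transcripts at the same threshold. Most of those that it called were lower in BY. *HXT2*, a transporter of high to intermediate affinity, changed most, with a log2 fold change of 0.77, and was the only one of the 10 whose libraries did not overlap between strains in normalized CPM (counts scaled to a common library total by TMM), which held for 2.92% of all transcripts tested. The calls depend on the surrogate variables, covariates estimated from the same counts: without them 0 of the 10 genes and 0 of 5987 transcripts passed, against 4 and 1400 at an unadjusted p under 0.05. Without replicate 5 of both strains 1 of the 10 genes, *HXT3*, was called.

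Libraries held 71103539 to 97644549 estimated counts. *UBR1* was lower in BY, at 149 ± 10.2 CPM against 173 ± 8.70 (± SD, 5 libraries each), with no overlap (134 to 157 against 162 to 183). Its log2 fold change was -0.21 ± 0.047 (SE, edgeR adjusted p = 0.019). Genes of the a mating type were present (*STE2* at a mean of 333 TPM for BY and 300 for BY *UBR1* -469A>T), and the alpha genes *STE3* and *MFALPHA1* had means between 0.588 and 1.66 TPM. *HIS3*, *LEU2*, *MET17*, *URA3* and *HO*, which are wholly or partly deleted in BY4741 or in the paper's strain table, were counted in every library, with at least 2398 estimated counts each, so the counts did not show these deletions. Within strains, a single principal component held 60.3% of the variance. The first surrogate variable was -0.31, -0.42, -0.22, -0.03 and 0.35 in BY replicates 1 to 5. It was -0.32, -0.09, 0.20, 0.26 and 0.58 in those of BY *UBR1* -469A>T. It was thus not balanced between strains, being higher in BY *UBR1* -469A>T for replicates 2 to 5. How much of the strain difference it takes up was not tested.

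Both transporter clusters and the sequence that separates *HXT6* from *HXT7* bear on what could be counted. In the R64 assembly, *HXT7* (1154216 to 1155928), *HXT6* (1159608 to 1161320) and *HXT3* (1162957 to 1164660) lie on the minus strand of chromosome IV within 10445 bases. *HXT4* (287081 to 288811), *HXT1* (290913 to 292625) and *HXT5* (294669 to 296447) lie on the minus strand of chromosome VIII within 9367 bases. *HXT2* is on the plus strand of chromosome XIII (288079 to 289704). *SNF3* (111580 to 114234, plus), *RGT2* (213351 to 215642, plus) and *MTH1* (1014401 to 1015702, minus) are also on chromosome IV. The counted transcripts have the lengths of these coding sequences, so they hold no untranslated regions.

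The coding sequences of *HXT6* and *HXT7* differ at 3 of 1713 bases, all near the 3′ end. Counted from 1 at the first coding base, with the *HXT6* base first, these are T1632C, G1666A and T1677C. The stretch that holds all 3 is coding bases 1602 to 1707, chrIV:1159614-1159719 for *HXT6* and chrIV:1154222-1154327 for *HXT7*, both on the minus strand, printed from the RefSeq R64 genome 5′ to 3′ with the differing bases in capitals.
HXT6: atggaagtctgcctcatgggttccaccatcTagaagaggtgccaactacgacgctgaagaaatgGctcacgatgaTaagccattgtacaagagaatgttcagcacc
HXT7: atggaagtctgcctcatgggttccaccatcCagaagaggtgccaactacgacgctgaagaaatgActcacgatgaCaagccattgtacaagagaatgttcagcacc
Of the 1683 words of 31 bases in either sequence, 1610 (95.7%) occur in both genes. The split of reads between *HXT6* and *HXT7* therefore rested on the remaining words, and their sum is given beside the separate values. *HXT3* shares 22.8% of its words with any other annotated coding sequence, *HXT1* 9.57%, *HXT4* 7.0%, *HXT5* 5.72% and *HXT2* 0.376%. *SNF3*, *RGT2* and *MTH1* share none.

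The regions before these genes were searched for CGGANNA, the core of the Rgt1 site, and for the Mig1 core, GGGG preceded by CC, CT, GC or GT, on both strands of the 1000 bases before each start codon. *HXT3* held 9 Rgt1 matches and *HXT1* held 8, and 0.0339% of 5892 such windows in the genome held 8 or more. *HXT5* and *MTH1* held 4 Rgt1 matches each, a number reached by 3.53% of windows. *HXT2*, *HXT4* and *HXT6* held 3 each, reached by 11.3% of windows. *HXT7* held 2, reached by 31.9% of windows. *SNF3* and *RGT2* held none. Mig1 matches numbered 4 at *HXT2* and *HXT4*, reached by 0.849% of windows, 3 at *HXT6* and *MTH1*, reached by 2.9%, and 2 at *HXT1*, *HXT3*, *HXT7* and *SNF3*, reached by 12.1%. *HXT5* held 1, a number reached by 41.9% of windows, and *RGT2* held none. A match is a run of letters and was not tested for binding.

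The windows differed in the kind of match they held, as the 250 bases with most matches, at least 100 bases from the start codon, show for a transporter with both kinds, a transporter with many Rgt1 matches and the regulator. These are *HXT2* at chrXIII:287449-287698 (plus strand, 630 to 381 bases before the start codon), *HXT3* at chrIV:1164963-1165212 (minus strand, 552 to 303 bases before it) and *MTH1* at chrIV:1016116-1016365 (minus strand, 663 to 414 bases before it), read 5′ to 3′ along the gene, with matches on either strand in capitals.
HXT2: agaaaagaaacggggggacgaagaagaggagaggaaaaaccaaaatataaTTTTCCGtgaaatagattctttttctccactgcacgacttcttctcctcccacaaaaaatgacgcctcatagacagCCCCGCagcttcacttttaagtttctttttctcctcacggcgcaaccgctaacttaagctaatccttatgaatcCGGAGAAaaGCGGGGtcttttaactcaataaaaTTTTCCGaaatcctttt
HXT3: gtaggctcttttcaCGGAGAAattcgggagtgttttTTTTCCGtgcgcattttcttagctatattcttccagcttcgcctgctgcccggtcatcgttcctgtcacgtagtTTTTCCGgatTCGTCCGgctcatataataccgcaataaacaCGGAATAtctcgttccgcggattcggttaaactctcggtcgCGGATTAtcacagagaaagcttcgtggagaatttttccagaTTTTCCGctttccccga
MTH1: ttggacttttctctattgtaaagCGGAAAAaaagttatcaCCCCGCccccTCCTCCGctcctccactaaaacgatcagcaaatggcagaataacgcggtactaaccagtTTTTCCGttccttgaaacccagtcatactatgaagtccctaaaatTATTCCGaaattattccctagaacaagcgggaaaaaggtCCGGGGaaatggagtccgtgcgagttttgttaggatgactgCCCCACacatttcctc
The *HXT2* stretch holds 3 Rgt1 and 2 Mig1 matches, the *HXT3* stretch 7 Rgt1 matches and no Mig1 match, and the *MTH1* stretch 4 Rgt1 and 3 Mig1 matches.

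**Figure D1:**
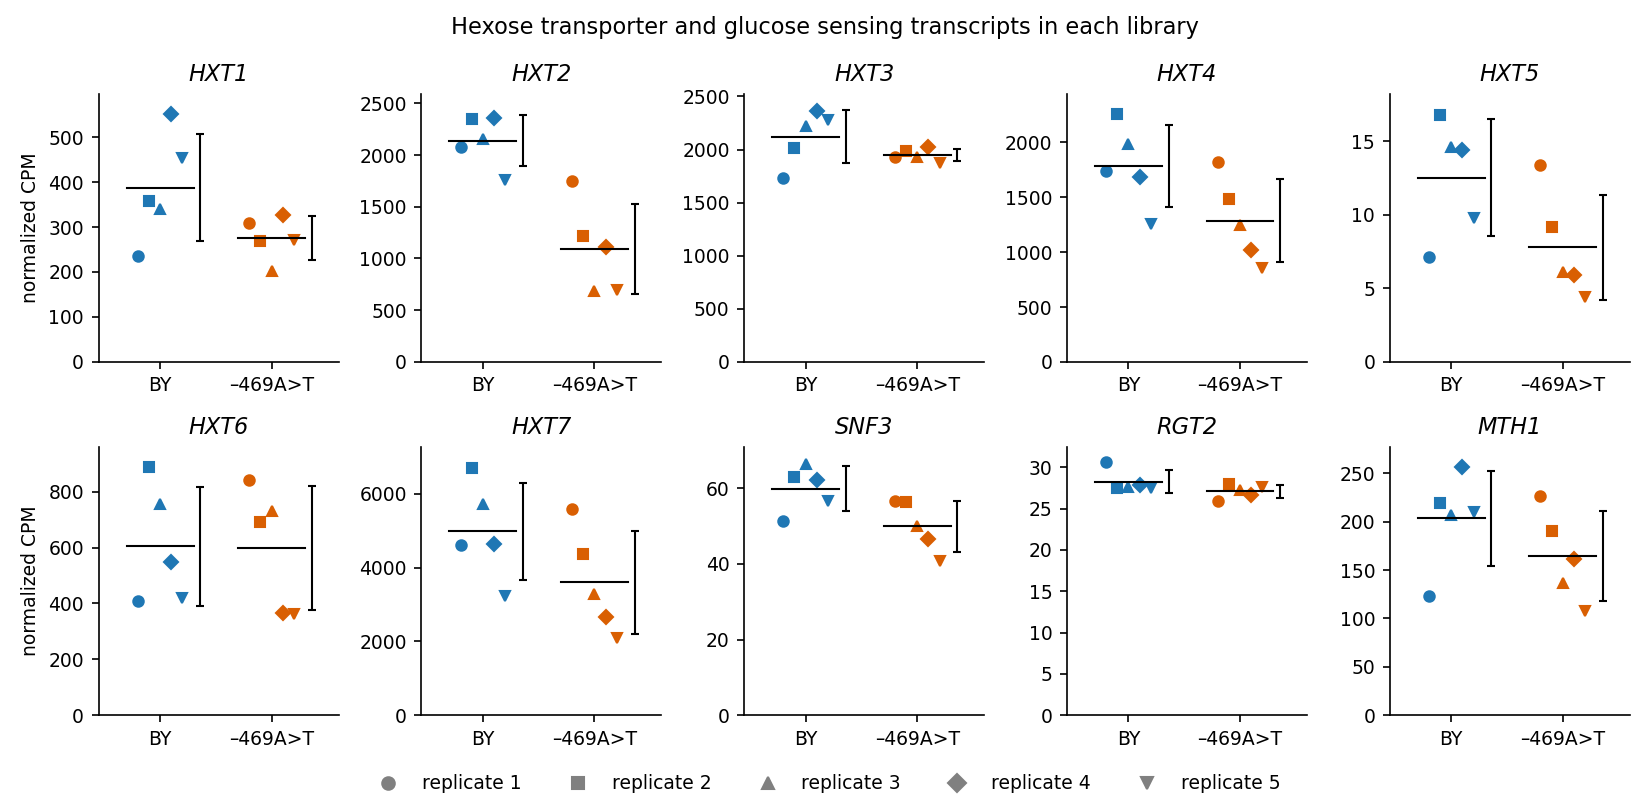
Normalized CPM (linear axis from 0) of each of the 10 genes in each library of BY (blue) and BY *UBR1* -469A>T (orange), with a marker shape per replicate number, the mean as a line and the SD as a bar (n = 5). *HXT2* alone shows no overlap, with BY between 1762 and 2359 and BY *UBR1* -469A>T between 684 and 1745.

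Both sensor transcripts were low. *SNF3*, the sensor for low glucose, had 51.2, 63.0, 66.3, 62.3 and 56.7 CPM in BY replicates 1 to 5 and 56.5, 56.4, 49.9, 46.5 and 40.7 in those of BY *UBR1* -469A>T. All BY values but that of replicate 1 lay above every BY *UBR1* -469A>T value, and BY replicate 1 lay among the BY *UBR1* -469A>T values. The mean was 59.9 ± 5.97 for BY and 50.0 ± 6.75 for BY *UBR1* -469A>T (± SD, 5 libraries each), with a log2 fold change of 0.17 ± 0.035 (SE) and an edgeR adjusted p of 0.014. An exact two-sided permutation test of log2 CPM gave a difference of 0.27 and p = 0.0317, before any adjustment for the 10 genes. *SNF3* was called when any 1 library was left out, but not when replicate 5 of both strains was left out (0.16, adjusted p = 0.15), and without surrogate variables its log2 fold change was 0.26.

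*RGT2*, the sensor for high glucose, showed no difference past the test. Its values were 30.7, 27.5, 27.6, 27.9 and 27.5 CPM in the BY libraries and 25.9, 28.0, 27.2, 26.7 and 27.6 in those of BY *UBR1* -469A>T. BY replicate 1 was the highest library, the other 4 BY libraries lay within the range of BY *UBR1* -469A>T, and BY *UBR1* -469A>T replicates 1, 3 and 4 were below every BY library. The log2 fold change was 0.06 ± 0.037 (SE, edgeR adjusted p = 0.28). In TPM, which adjusts for transcript length, all BY libraries lay above all BY *UBR1* -469A>T libraries, with a mean difference of 0.12 on the log2(TPM + 1) scale (exact permutation p = 0.0079, the smallest possible with 5 against 5). On that scale the median transcript was itself shifted by 0.08, against 0.005 in CPM.

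*MTH1* encodes the corepressor that is degraded when the sensors bind glucose, and its own gene is known to be repressed through Mig1. It had 124, 220, 207, 257 and 210 CPM in the BY libraries and 227, 191, 137, 161 and 108 in those of BY *UBR1* -469A>T. BY replicate 1 was below all but the lowest BY *UBR1* -469A>T value, and each of the other 4 BY libraries exceeded at least 4 of the 5. The means were 203 ± 48.9 and 165 ± 46.4 (± SD, 5 libraries each), and the log2 fold change of 0.16 ± 0.067 (SE) had an edgeR adjusted p of 0.14. Without BY replicate 1 it was 0.36 (adjusted p = 0.039) and without BY replicate 3 it was 0.17 (adjusted p = 0.046), past the threshold in both. It was 0.09 both without BY replicate 4 and without BY *UBR1* -469A>T replicate 5 (adjusted p of 0.54 and 0.50), and 0.24 without BY *UBR1* -469A>T replicate 1 (0.13). Without surrogate variables it was 0.30, not past the threshold.

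*HXT1* and *HXT3* encode the carriers of low affinity that serve growth on high glucose. *HXT1* had 236, 358, 340, 551 and 453 CPM in the BY libraries and 309, 268, 202, 327 and 272 in those of BY *UBR1* -469A>T. The 4 libraries above all BY *UBR1* -469A>T values were BY replicates 2 to 5, and BY replicate 1 was lower than 4 of the 5 BY *UBR1* -469A>T libraries. The mean was 387 ± 120 for BY and 276 ± 47.9 for BY *UBR1* -469A>T (± SD, 5 libraries each). The log2 fold change of 0.50 ± 0.14 (SE) passed edgeR's test (adjusted p = 0.038), and the exact permutation test gave p = 0.103. The call was lost without BY replicate 4 (0.38, adjusted p = 0.10), BY replicate 5 (0.62, 0.12) or BY *UBR1* -469A>T replicate 2 (0.49, 0.14).

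*HXT3* was nearly level across BY *UBR1* -469A>T. It had 1928, 1985, 1928, 2028 and 1872 CPM there and 1731, 2016, 2218, 2363 and 2280 in BY. BY was thus both higher in 3 libraries and lower in 1 than any BY *UBR1* -469A>T library, with an SD of 253 around 2122 against 60.02 around 1948. The log2 fold change was 0.14 ± 0.039 (SE, edgeR adjusted p = 0.037), and the exact permutation test gave p = 0.183 for CPM and 0.0476 on the log2(TPM + 1) scale. Without BY replicate 1 it was 0.21 (adjusted p = 0.017). It was not called without BY replicate 4 (0.11, adjusted p = 0.12), BY *UBR1* -469A>T replicate 1 (0.13, 0.13) or BY *UBR1* -469A>T replicate 2 (0.15, 0.14).

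*HXT2* and *HXT4* encode carriers of intermediate to high affinity, transcribed at low glucose. *HXT2* had 2073, 2350, 2155, 2359 and 1762 CPM in the BY libraries and 1745, 1220, 684, 1112 and 692 in those of BY *UBR1* -469A>T. The lowest BY library, replicate 5, stood just above the highest BY *UBR1* -469A>T library, replicate 1. The means were 2140 ± 245 and 1090 ± 439 (± SD, 5 libraries each), and the log2 fold change was 0.77 ± 0.14 (SE, edgeR adjusted p = 0.0065). The exact permutation test gave a log2 difference of 1.06 and the smallest p it allows, 0.0079, which was not adjusted over the 10 genes. RNA came from whole cultures, so fewer cells with the transcript and less of it per cell cannot be told apart, here and for the other genes. Leaving out any 1 library kept the call. Without surrogate variables the log2 fold change was 0.97 (adjusted p = 0.16), and without replicate 5 of both strains it was 0.68 (0.17).

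*HXT4* had 1740, 2258, 1982, 1683 and 1252 CPM in the BY libraries and 1822, 1480, 1246, 1021 and 859 in those of BY *UBR1* -469A>T. The ranges overlapped widely, with replicate 5 the lowest library of each strain. The means were 1783 ± 374 and 1286 ± 380 (± SD, 5 libraries each). The log2 fold change was 0.20 ± 0.048 (SE, edgeR adjusted p = 0.022) with surrogate variables and 0.47 without them, and the exact permutation test gave p = 0.0794. It was not called without BY replicate 5 (0.19, adjusted p = 0.15), BY *UBR1* -469A>T replicate 2 (0.15, 0.17) or BY *UBR1* -469A>T replicate 4 (0.14, 0.11).

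**Figure D2:**
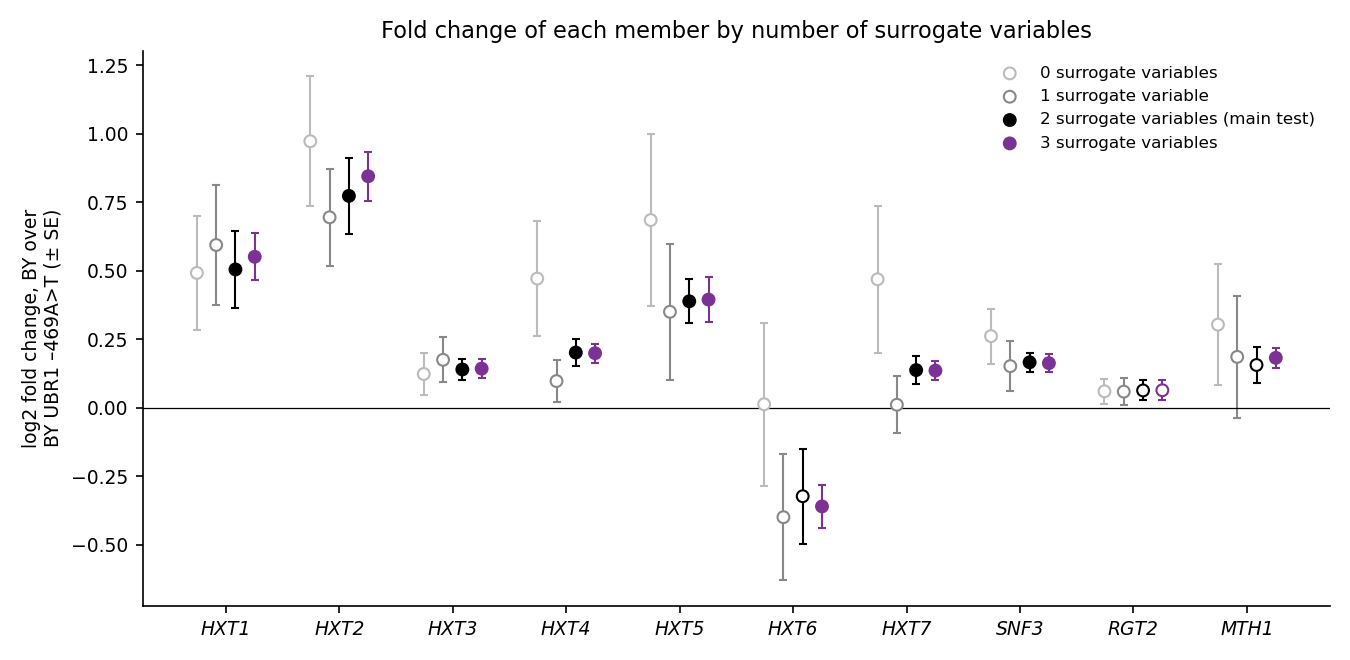
Log2 fold change of BY over BY *UBR1* -469A>T (± SE) of the 10 genes by edgeR with 0, 1, 2 and 3 surrogate variables, where filled points have an adjusted p under 0.1 and none is filled with 0 or 1 surrogate variable. *HXT4* moves from 0.47 to 0.20 between 0 and 2, *HXT7* from 0.47 to 0.14, and *HXT6* from 0.01 to -0.32.

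*HXT6* and *HXT7* encode carriers of high affinity. *HXT7* had the most estimated counts of the 10 genes in every library, at 4604, 6703, 5740, 4639 and 3240 CPM in the BY libraries and 5594, 4377, 3286, 2666 and 2087 in those of BY *UBR1* -469A>T. *HXT6* had 408, 889, 755, 550 and 420 CPM in the BY libraries and 843, 690, 732, 365 and 363 in those of BY *UBR1* -469A>T. The strains overlapped for both, and replicate 5 of BY *UBR1* -469A>T was the lowest library for each. The log2 fold change was 0.14 ± 0.050 (SE) for *HXT7*, just inside the threshold (edgeR adjusted p = 0.094), and -0.32 ± 0.17 for *HXT6* (adjusted p = 0.24), whose sign turned to 0.01 without surrogate variables. *HXT7* lost its call when any library but BY replicate 1 was left out, with log2 fold changes from 0.05 to 0.15 and adjusted p from 0.11 to 0.53, and its log2 fold change was 0.47 without surrogate variables. With 3 surrogate variables *HXT6* passed as lower in BY (adjusted p = 0.0095).

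Summed over both genes, the level was 5589 ± 1504 CPM in the BY libraries and 4201 ± 1599 in those of BY *UBR1* -469A>T (± SD, 5 libraries each). The log2 fold change of the sum was 0.08 ± 0.064 (SE, edgeR adjusted p = 0.47), and the exact permutation test gave p = 0.19. *HXT6* took 8.14%, 11.7%, 11.6%, 10.6% and 11.5% of the summed counts in the BY libraries and 13.1%, 13.6%, 18.2%, 12.1% and 14.8% in those of BY *UBR1* -469A>T. Every BY *UBR1* -469A>T library thus had a larger *HXT6* part than every BY library. The separation was not tested, and how often such parts separate for other gene pairs was not computed. This split rests on the 3 bases that differ, and how it was estimated was not tested.

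*HXT5*, a carrier of moderate affinity known for expression in slowly growing cells, was the lowest of the 7 transporters. It had 7.11, 16.7, 14.6, 14.4 and 9.75 CPM in the BY libraries and 13.4, 9.15, 6.09, 5.88 and 4.44 in those of BY *UBR1* -469A>T. The strains overlapped in BY replicates 1 and 5 and BY *UBR1* -469A>T replicates 1 and 2. The means were 12.5 ± 3.96 and 7.78 ± 3.56 (± SD, 5 libraries each). Its log2 fold change was 0.39 ± 0.080 (SE, edgeR adjusted p = 0.013), 0.68 without surrogate variables, and the exact permutation test gave p = 0.0794. It was called when any 1 library was left out, but not without replicate 5 of both strains (0.32, adjusted p = 0.13).

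**Figure D3:**
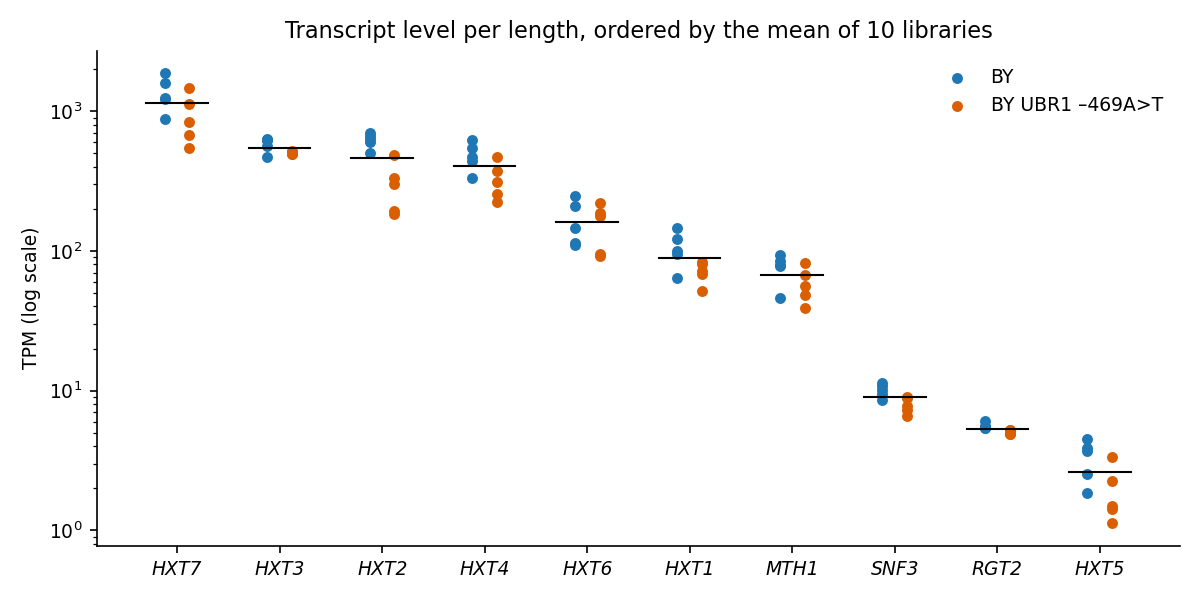
TPM (log axis) of the 10 genes in each library of BY (blue) and BY *UBR1* -469A>T (orange), ordered by the mean of 10 libraries (line). Levels fall from 1148 for *HXT7* to 2.61 for *HXT5*.

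Per length, *HXT7* stood first at 1148 ± 421 TPM over the 10 libraries (SD, range 550 to 1874) and exceeded *HXT3* in 10 of 10. *HXT3* (544 ± 60.5 TPM), *HXT2* (460 ± 194 TPM) and *HXT4* (405 ± 127 TPM) had overlapping ranges. *HXT3* was above *HXT2* in 6 of 10 libraries and *HXT2* above *HXT4* in 7 of 10, so these neighbours were not separated. *HXT6* followed at 160 ± 56.1 TPM, below *HXT4* in 10 of 10 libraries, then *HXT1* at 88.4 ± 28.7 TPM, which *HXT6* exceeded in 8 of 10. *MTH1* had 67.6 ± 18.9 TPM, and *HXT1* lay above it in 9 of 10 libraries. *SNF3* (8.98 ± 1.52 TPM), *RGT2* (5.30 ± 0.349 TPM) and *HXT5* (2.61 ± 1.17 TPM) came last, and none of these ranges overlapped its neighbour above.

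Added together, *HXT1* to *HXT7* came to 3328 ± 602 TPM in BY (2581 to 4115) and 2290 ± 630 TPM in BY *UBR1* -469A>T (1633 to 3228), with overlapping libraries. The composition of this sum differed between strains most for *HXT2*. *HXT2* made up 18.9% ± 1.67 of it in BY (SD, n = 5) and 12.8% ± 2.65 in BY *UBR1* -469A>T, a difference of 6.02 percentage points with no overlap between strains (exact two-sided permutation p = 0.0079, the smallest possible, over 8 shares compared without adjustment). *HXT3* went the other way, at 17.98% ± 3.95 for BY and 23.3% ± 5.78 for BY *UBR1* -469A>T, but the libraries overlapped (exact p = 0.143). *HXT7* made up 40.5% ± 4.6 and 39.6% ± 5.05, *HXT4* 14.4% and 14.2%, *HXT1* 3.28% and 3.27%, and *HXT5* 0.0973% and 0.0810%. *HXT6* made up 4.86% ± 0.956 for BY and 6.67% ± 1.55 for BY *UBR1* -469A>T, with overlapping libraries (exact p = 0.0556). *HXT6* and *HXT7* together held 45.4% ± 5.21 for BY and 46.3% ± 6.02 for BY *UBR1* -469A>T.

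**Figure D4:**
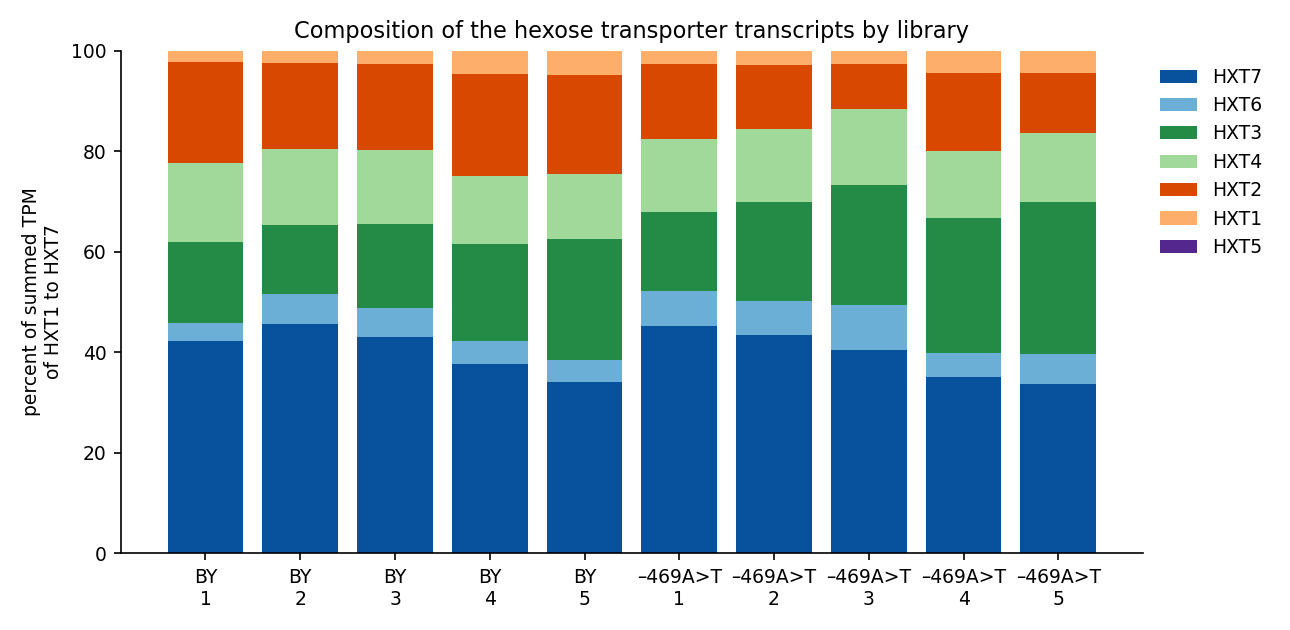
Share (percent) of the summed TPM of *HXT1* to *HXT7* taken by each transporter in each library, as stacked bars from 0 to 100. *HXT2* takes between 8.94% and 15.6% in the BY *UBR1* -469A>T libraries and at least 16.95% in the BY libraries, and *HXT5* is too small to be seen.

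Libraries of the same strain differed, and the genes moved together in these differences. With strain means removed from log2 CPM, 31 of the 45 pairs correlated positively over the 10 libraries, and 11 pairs, all positive, had an adjusted p under 0.05 (permutation within strains, 100000 draws, Benjamini-Hochberg over the 45 pairs). *HXT4* and *HXT7*, on different chromosomes, correlated most closely, with Pearson's r = 0.997 (adjusted permutation p = 0.0058) and Spearman's rho = 0.988 (adjusted permutation p = 0.0079). Their r was 0.994 without the 2 libraries farthest from the *HXT4* median. *HXT5* correlated with *SNF3* at r = 0.928 and rho = 0.939 (adjusted permutation p of r = 0.013) and with *MTH1* at r = 0.896 (0.026). The other 8 pairs past the threshold, with r from 0.814 to 0.882, joined *HXT4*, *HXT5*, *HXT6*, *HXT7*, *SNF3* and *MTH1*. *HXT6* and *HXT7* are among these pairs (0.882) but share 95.7% of their words of 31 bases, so their counts are not independent measurements. All 10 points share the libraries' main axis: BY replicate 2, with a first surrogate variable of -0.42, had the most *HXT7*, and BY *UBR1* -469A>T replicate 5, at 0.58, had the least. The part of that axis in these correlations was not tested. How many pairs among all transcripts would pass was not computed, so co-movement is not shown to be particular to these genes.

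*HXT1*, *HXT2*, *HXT3* and *RGT2* were in none of these 11 pairs. *HXT1* correlated with *HXT4* at r = -0.165, with *HXT7* at -0.11 and with *HXT2* at 0.341. With *HXT3* it reached r = 0.818 and rho = 0.648 (adjusted permutation p of r = 0.052). Without the 2 libraries farthest from the *HXT1* median r was 0.412, so this relation rested on those libraries. *RGT2* correlated negatively with the other 9 genes, most strongly with *MTH1* (r = -0.731, adjusted permutation p = 0.095). Without the 2 libraries farthest from the *RGT2* median, its r with *MTH1* was -0.869 in CPM. On the log2(TPM + 1) scale the same step took it from -0.743 to -0.117, so this relation depended on the scale. Without the 2 farthest from the other gene's median, r of *RGT2* was positive with *HXT4* (0.152), *HXT7* (0.093) and *SNF3* (0.09). Its negative sign with these 3 thus rested on 2 libraries in each pair, which may differ between pairs. On the log2(TPM + 1) scale 15 pairs passed, among them *HXT1* with *HXT3* (adjusted permutation p = 0.036) and, negatively, *HXT3* with *RGT2* (r = -0.814, 0.045). The latter r was -0.426 without the 2 libraries farthest from the *HXT3* median.

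**Figure D5:**
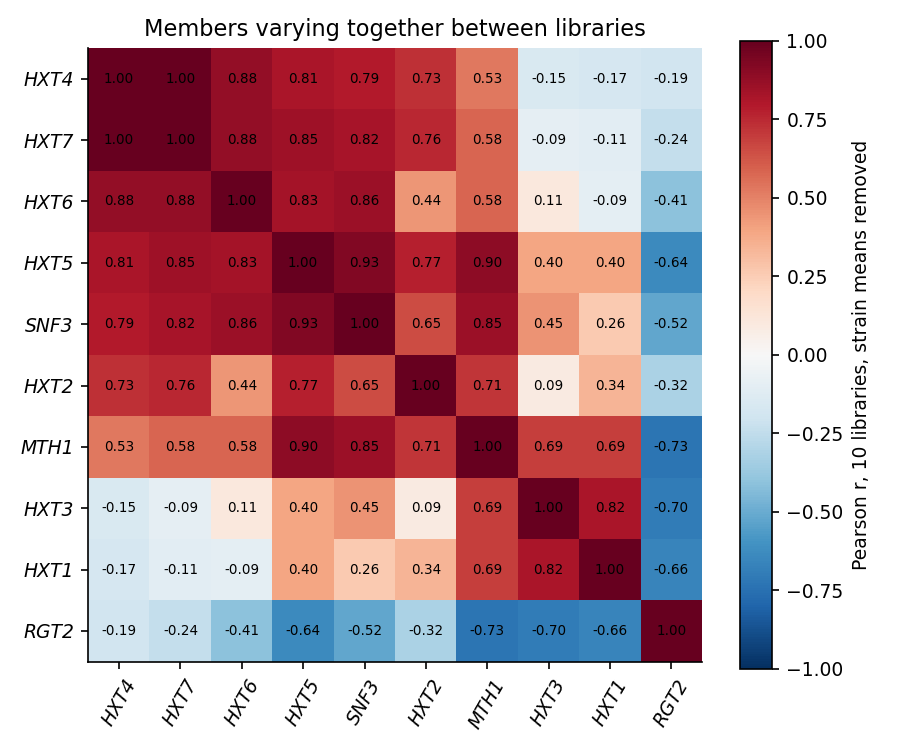
Pearson's r of log2 CPM between each pair of the 10 genes over 10 libraries with strain means removed, from -1 (blue) to 1 (red). *HXT4*, *HXT7*, *HXT6*, *HXT5* and *SNF3* form a block of r between 0.79 and 1.00, and *RGT2* is negative with all others. For *HXT4*, *HXT7* and *SNF3* that sign turns without the 2 libraries farthest from that gene's own median.

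Among the transcripts tested other than these 10 genes, the nearest to each called gene over the 10 libraries were found by the same r. For *HXT2* these were *ALD6*, the cytosolic aldehyde dehydrogenase (r = 0.989), and *SRF1* (0.982). *ALD6* was itself higher in BY, with a log2 fold change of 0.67 (edgeR adjusted p = 0.019). For *HXT4* they were YLR345W (0.997) and *SAF1*, an F-box protein gene (0.996), and for *HXT7* *VID28*, a subunit of the GID ubiquitin ligase (0.994), and *SAF1* (0.994). For *HXT1* they were *SUT1* (0.962) and *ABZ1* (0.953), for *HXT3* YJR154W (0.975) and *SPO24* (0.965), for *HXT5* YMR206W (0.992) and *CSR2* (0.991), and for *SNF3* *STR3* (0.988) and *STB2* (0.978). Of these transcripts, YLR345W, *VID28*, YMR206W and *CSR2* were also called higher in BY. *SRF1*, *SAF1*, *SUT1*, *ABZ1*, YJR154W, *SPO24*, *STR3* and *STB2* were not called. The r values were selected as the highest outside the 10 genes and are a description.

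Of 40 further genes of glucose uptake and sensing, 37 could be tested and 6 passed, 4 higher and 2 lower in BY, with a median log2 fold change of 0.05, beside the 21.2% of all transcripts called (9.32% higher and 11.9% lower in BY). The 6 genes are 16.2% of the 37. The other hexose transporters were nearly silent, with 0.879 TPM, in *GAL2*, the highest value in any library. Of 11 listed, 9 were tested and none was called, with a median log2 fold change of 0.01. *HXT8* had -0.28 (edgeR adjusted p = 0.12) and *HXT10* 0.27 (0.34). *HXT16* was listed at 0 and *HXT14* fell below the count filter. *HXT12* was not analysed here.

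Between the sensors and the *HXT* promoters, 2 of 9 genes passed, beside 21.2% of all transcripts. *STD1*, the paralog of *MTH1*, was lower in BY, at 54.7 ± 15.7 CPM against 73.4 ± 15.3 (± SD, 5 libraries each, overlapping), with a log2 fold change of -0.19 ± 0.035 (SE, edgeR adjusted p = 0.0080). *CDC53*, the SCF cullin, was higher in BY at 0.10 ± 0.034 (adjusted p = 0.069). *GRR1*, the F-box protein that binds Mth1, had 0.07 (adjusted p = 0.15) and *TUP1* -0.04 (0.70), and the median of the 9 genes was 0.0049.

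On the Snf1 and Mig1 branch, 4 of 14 genes passed, 3 of them higher in BY, beside 21.2% of all transcripts, with a median log2 fold change of 0.07. *CAT8* and *ADR1*, activators of genes for non-fermentable carbon sources, were higher in BY. *CAT8* had 38.6 ± 8.51 CPM against 21.68 ± 8.501 (± SD, 5 libraries each), a log2 fold change of 0.60 ± 0.065 (SE, edgeR adjusted p = 0.00061). *ADR1* had 72.7 ± 9.15 CPM against 50.9 ± 10.8, a log2 fold change of 0.37 ± 0.044 (adjusted p = 0.00093). *SUC2*, the invertase gene that Mig1 represses, had 177 ± 42.1 CPM against 109 ± 25.7 with a log2 difference of 0.46 ± 0.094 (adjusted p = 0.012). *NRG1*, a glucose-dependent repressor, was lower in BY, at -0.25 ± 0.071 (adjusted p = 0.044). The libraries of all 4 overlapped between strains. *SNF1* itself had 0.08 and *SIP1*, a subunit of its kinase complex, 0.10 (adjusted p = 0.11 for each).

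No gene of glucose phosphorylation passed, with *HXK1* at 0.18 (adjusted p = 0.35), *GLK1* at 0.10 (0.20) and a median log2 fold change of 0.09 over 4 genes. The G protein-coupled glucose receptor *GPR1* and its partner *GPA2* had 0.03 and 0.05, neither past edgeR's test. Without surrogate variables none of the 37 genes passed.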

How the data were processed

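RNA from 5 BY and 5 BY *UBR1* -469A>T cultures was grouped by the genotype and replicate number in the labels. The authors trimmed reads with fastp, pseudoaligned them with Kallisto to the yeast transcripts of Ensembl release 96, and deposited an estimated count and a TPM per transcript and library. The assembly and Kallisto's strand setting are not given in the sources used here. Estimated counts, as deposited, carry no normalization and were rounded before testing. The deposited TPM values are scaled within each library and served to compare levels between genes. A transcript was kept if no library had fewer than 10 estimated counts of it and its effective length was 1 or more. Kept transcripts entered edgeR's quasi-likelihood test (edgeR 4.0.16, R 4.3.3), TMM normalization and 2 surrogate variables (svaseq, sva 3.50.0), with Benjamini-Hochberg adjustment over all 5987 transcripts and a threshold of 0.1. The paper's model also holds extraction batch and optical density, which the labels do not give for each culture, so its model could not be fitted here. SE is the log2 fold change over the square root of F. Normalized CPM and log2(TPM + 1) values were also compared by exact permutation tests (scipy 1.17.1). The least counted of the 10 genes, *HXT5*, never fell below 396 estimated counts, and counting error was not compared with the spread between cultures. Of the identifiers, 5929 matched the R64 annotation, which gave names, coordinates and sequences. The procedure was also run on counts simulated from its own fit with the same surrogate variables, which cannot test the choice of those variables.

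Named genes are the 10 members, the called and the 2 most changed uncalled genes of each pathway list, and the 2 nearest transcripts by r of each called member. Members and lists were chosen with earlier results of these data known. Alternatives covered the test (DESeq2 1.42.0), the number of surrogate variables, a replicate block, count minimum, normalization, threshold and left-out libraries. The surrogate variables from unnormalized counts and the fit without replicate 5 of both strains were chosen after seeing the data.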

Additional observations from a re-analysis of the deposited data

Results flagged for a closer look

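*RGT2* in BY replicate 1 stood far from the other BY libraries, at 30.7 CPM against 27.5 to 27.9 in the other 4. The gap made up 0.877 of the range of the 5 libraries, above Dixon's critical value of 0.71. This was 1 of 22 groups examined, and chance marks about 1 in 20. The same library had the second surrogate variable at -0.77, against -0.31 to 0.31 in the other 9, and the lowest BY value of *HXT1*, *HXT3*, *HXT5*, *HXT6*, *SNF3* and *MTH1*. Without it, *RGT2* had a log2 fold change of 0.04 (edgeR adjusted p = 0.55). Why it stands apart was not tested.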

How the results depend on the processing

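Of the 10 genes, 7 were called with 2 surrogate variables, 0 without surrogate variables and 0 with 1. With 3, 9 were called, 8 higher in BY and *HXT6* lower. There were 4 when a transcript needed 1 count in any library and 8 when it needed 100 in every library. With *HXT6* and *HXT7* summed, 6 of 9 were called. Surrogate variables from unnormalized counts gave 0, and leaving out replicate 5 of both strains gave 1, both chosen after seeing the data. Leaving out 1 library gave 3 to 8, with 3 without BY *UBR1* -469A>T replicate 2, 4 without BY replicate 4 or BY replicate 5, and 8 without BY replicate 1. DESeq2, RLE and upper-quartile scaling each gave 7. Of the 37 pathway genes, 6 were called, against 0 without surrogate variables, 0 with 1, 11 with 3, 11 at a minimum of 100 counts, 0 with those from unnormalized counts, 3 without both replicates 5, and 3 to 8 without 1 library. Over all transcripts, 1269 were called, against 0, 43 and 1841 with 0, 1 and 3 surrogate variables, 927 and 1700 at minima of 1 and 100 counts, 756 at a threshold of 0.05, 118 with those from unnormalized counts, 146 without both replicates 5, and 257 to 1305 without 1 library. Direction reversed for *HXT6* without surrogate variables (0.013) and *HXT7* with those from unnormalized counts (-0.0091). The cause was not tested.

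Same-numbered libraries correlated at 0.294, 0.535, -0.01, 0.488 and 0.687 in their deviations, and 3 of 5 BY libraries correlated best with their own number. The labels give no meaning to the number and 1 pair was not above 0.1, so the numbers were not taken as a pairing, though most pairs deviated together. A replicate block gave 0 of 10 genes, 2 of 37 and 43 of all transcripts with 2 surrogate variables, and 5, 14 and 2373 without them. With the block *HXT5* was -0.0037 (2 surrogate variables) and *HXT6* 0.0402 (none).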
